A study of Homo sapiens with 6 samples.

Results

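The Hippo pathway and its output genes were followed in PANC-1 cells, a human line grown from a pancreatic carcinoma, after silencing of ZDHHC20. This gene encodes a palmitoyl acyltransferase, which attaches palmitate to cysteines of other proteins. The 38 members were listed by name as Hippo kinases, their regulators, the YAP and TEAD genes and known YAP targets. They and the lists of other genes used below were chosen with earlier results of these data known. All 38 members were found among the 27394 genes of the deposited table. Each had a mean of at least 1, so that no member was lost to the filter. Of the 6 RNA-seq libraries, 3 came from cells given a control shRNA (shControl) and 3 from cells given an shRNA against ZDHHC20 (shZDHHC20). The labels give RPMI-1640 with serum as the medium, whereas the study's methods give DMEM for its cell lines, and which was used for these libraries is not settled here. The labels describe the treatment as a transfection or infection and give neither the day of harvest nor which of the study's hairpins was used. Whether the 3 shZDHHC20 libraries had the same hairpin is therefore not known. Effects of a hairpin on other transcripts cannot be told apart from the loss of ZDHHC20. Nothing in the labels says that the libraries came from separate cultures, so the p-values measure the spread between these samples, which may be technical.

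The Hippo pathway is a kinase cascade that restrains growth. STK3 and STK4 (MST2 and MST1), held by the scaffold SAV1, activate LATS1 and LATS2, which work with MOB1A and MOB1B. The LATS kinases phosphorylate the coactivators YAP (YAP1) and TAZ (WWTR1), which are then kept in the cytoplasm or degraded. Unphosphorylated YAP and TAZ enter the nucleus, bind the TEAD transcription factors and turn on genes for matricellular proteins, cytoskeletal regulators and receptors. In pancreatic cancer YAP is known for its part in tumour growth. RNA levels do not show the phosphorylation or location of YAP, which were not measured here.

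TEAD factors recognise sites that often read GGAATG, and 5 stretches of the genome that hold these bases are shown because they lie before RefSeq starts of genes the results turn on. Each is taken from the 250 bases before a RefSeq start on GRCh38.p14, read 5′ to 3′ along the gene's strand, with GGAATG or its reverse complement CATTCC in capitals. Bases within a GENCODE 29 exon of the gene were left out, which shortened ANKRD1 to 61 bases, NUAK2 to 204 and CCN2 to 249, and the 250 bases of YAP1 and PTPN14 overlap no exon of these genes. The PTPN14 stretch lies before an internal RefSeq start, within the gene as GENCODE 29 draws it and downstream of the GENCODE start.
CCN2, chr6:131951374-131951622, minus strand: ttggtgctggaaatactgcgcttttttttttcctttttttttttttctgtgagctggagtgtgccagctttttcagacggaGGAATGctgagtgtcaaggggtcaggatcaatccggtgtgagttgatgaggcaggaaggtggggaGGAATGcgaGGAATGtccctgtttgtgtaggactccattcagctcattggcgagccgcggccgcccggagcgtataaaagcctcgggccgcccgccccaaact
ANKRD1, chr10:90921277-90921337, minus strand: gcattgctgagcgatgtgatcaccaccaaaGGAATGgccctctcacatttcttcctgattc
NUAK2, chr1:205321792-205321995, minus strand: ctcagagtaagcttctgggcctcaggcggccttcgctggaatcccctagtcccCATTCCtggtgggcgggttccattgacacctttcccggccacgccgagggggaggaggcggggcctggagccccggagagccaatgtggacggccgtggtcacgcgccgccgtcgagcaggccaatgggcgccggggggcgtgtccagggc
YAP1, chr11:102110197-102110446, plus strand: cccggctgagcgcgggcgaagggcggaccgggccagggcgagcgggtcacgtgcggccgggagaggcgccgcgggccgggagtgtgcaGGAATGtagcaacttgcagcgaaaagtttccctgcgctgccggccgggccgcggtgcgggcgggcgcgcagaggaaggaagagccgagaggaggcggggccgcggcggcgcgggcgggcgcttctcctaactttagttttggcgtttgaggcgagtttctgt
PTPN14, chr1:214551603-214551852, minus strand: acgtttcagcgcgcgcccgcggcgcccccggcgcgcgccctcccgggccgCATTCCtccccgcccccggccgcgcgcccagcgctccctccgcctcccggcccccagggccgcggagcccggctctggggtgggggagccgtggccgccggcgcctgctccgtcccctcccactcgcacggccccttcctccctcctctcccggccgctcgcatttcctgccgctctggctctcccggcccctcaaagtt
CCN2 held 3 copies and the other 4 stretches held 1 each. ANKRD1 and NUAK2 have another copy within the exon bases left out, at bases -128 and -18 from the RefSeq start. In windows from 250 bases before to 50 after the start, which 30 of the 38 members had, 11 members (36.7%) held at least 1 copy on either strand, against 4567 of 27305 genes (16.7%) in the whole RefSeq table. Some genes have several windows, and over windows the shares were 11 of 46 (23.9%) for the members and 4928 of 35116 (14.0%) in all. A match of 6 bases is a description of these letters and no measure of binding, and no TEAD binding was measured.

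The values were gene read counts divided by 1 scaling factor per library, called normalized counts below, and each library could be traced back to between 16575546 and 18441049 whole reads. ZDHHC20 itself had normalized counts of 2001, 2033 and 1940.4 in the shControl libraries and 872, 779 and 893 in the shZDHHC20 libraries, 42.6% of the control mean (log2 fold change -1.23 ± 0.06, adjusted p = 4.36e-07; without shZDHHC20 replicate 2, -1.17). The groups did not overlap. The ± of a log2 fold change is its SE, and that of other values an SD. The epithelial keratins KRT8, KRT18 and KRT19 had normalized counts above 5771 in every library, whereas KRT7 ranged from 63.6 to 122. The summed level of the 4 keratins listed was 80541 to 82577 in shControl and 74803 to 76193 in shZDHHC20. Fibroblast markers summed to between 72.8 and 99.6, leukocyte markers to between 24.4 and 45.1 and endothelial markers to between 32.9 and 55.6, each from 3 genes. LUM, PTPRC, CD68 and VWF were at 0 in at least 1 library. The library of shZDHHC20 replicate 2 stood apart. Over 4136 well expressed genes, its log2 values differed from those of the other shZDHHC20 libraries with an SD of 0.178 and 0.198, while the other pairs within a group gave 0.0674 to 0.0722. Mitochondrial genes held 4.01% of its signal against 5.28% to 5.52% elsewhere. Log2 fold changes without this library are therefore given for every member called and every other gene given with an adjusted p of its own. Ratios of related genes are also given without it where they did not overlap between groups.

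Of the 38 members, 14 were lower (36.8%) and 4 were higher (10.5%) after ZDHHC20 silencing, at an adjusted p under 0.05 in a limma fit over 22189 genes. The other 20 did not pass. Because the members were chosen with earlier results of these data known, their shares are a description and no independent support. In the same fit 6.84% of all genes were called lower and 4.61% higher. Among the 11404 genes at or above the mean of the least abundant member, whose expression is more like that of the members, the shares were 12.9% and 8.27%. DCHS1 alone sets this cut (mean 73.9), and the other members lay well above it. From all genes to this set the shares called rose with level, so they may be larger at most members' own levels. Those shares were not computed, which holds wherever 12.9% and 8.27% are used below. The median log2 fold change (shZDHHC20 minus shControl) was -0.12 over the members and 0.01 over all genes tested. The 3 values of a group did not overlap with those of the other in 24 members, 17 lower and 7 higher (44.7% and 18.4%), where 14.8% and 13.8% of all genes were separated in those directions. Of the 11404 genes at or above the lowest member's mean, 2675 were separated downward and 2119 upward. The upward share of the members was close to that of these genes. The changes were modest: the members called lower stood at 59.0% to 88.7% of the control mean, those called higher at 115% to 142%, and 1 of the 18 (PTPN14) changed by at least 1.5-fold. Without shZDHHC20 replicate 2, the 18 members called with all libraries were called again, and 4 more passed, to give 16 lower and 6 higher, against 11.1% and 8.93% of all genes. Without shControl replicate 1, 2 or 3, 8 were lower and 1 or 2 higher, and without shZDHHC20 replicate 1 or 3, 9 and 11 were lower and 1 higher. In these 5 fits the shares of all genes called were also smaller, at 3.34% to 5.09% lower and 2.10% to 2.87% higher. PTPN14, YAP1, AMOT, NF2, AXL, CCN2, CRIM1 and LATS2 were called whichever library was left out, and for the other 10 the highest adjusted p was 0.0503 (CCN1) to 0.174 (TAOK1). Bulk RNA cannot separate fewer cells that express a gene from less RNA in each cell.

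**Figure D1:**
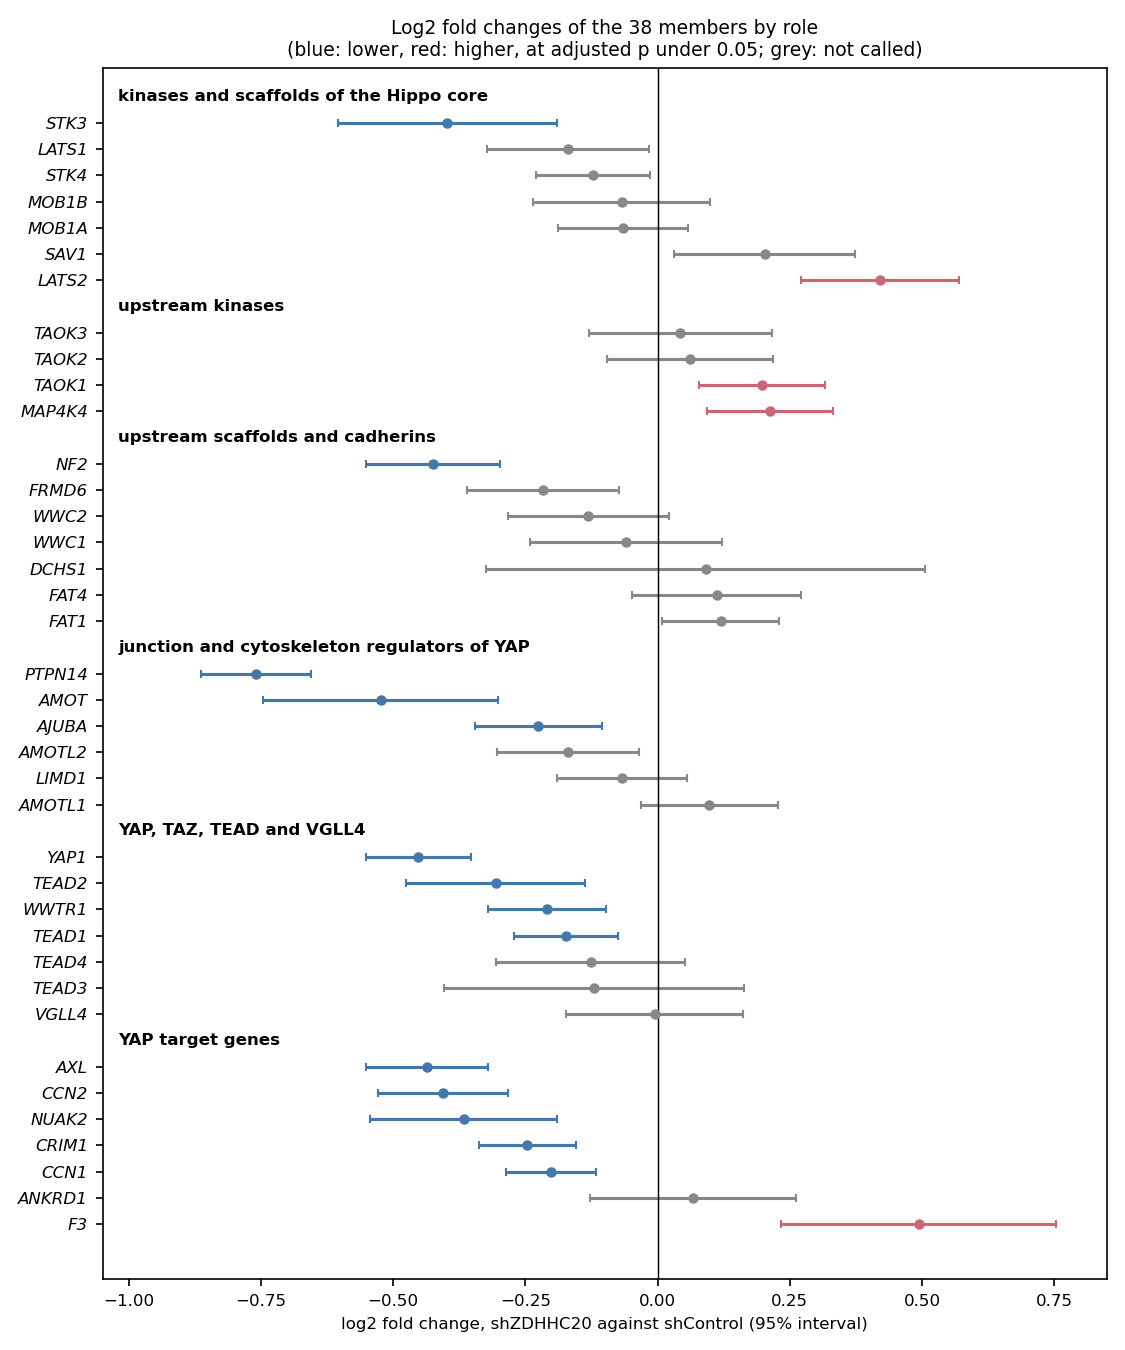
Log2 fold changes (x axis, shZDHHC20 against shControl) of the 38 members, grouped by role, with 95% intervals from the limma fit; blue points were called lower and red points higher at an adjusted p under 0.05. PTPN14 lies farthest to the left at -0.76 and F3 farthest to the right at 0.49, the 7 genes of the YAP, TAZ, TEAD and VGLL4 group lie below 0 (VGLL4 itself at -0.01, above 0 under quantile normalization and edgeR), and the 4 upstream kinases lie above 0 (TAOK2 below 0 without shZDHHC20 replicate 2).

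In the transcriptional arm of the pathway, 4 of 7 genes were called lower (YAP1, TEAD2, WWTR1 and TEAD1), none was called higher, and the median log2 fold change was -0.17. Among all genes at or above the lowest member's mean, 12.9% were called lower and 8.27% higher. YAP1 (chr11:102110461-102233423, plus strand, GENCODE 29 on GRCh38), the coactivator that LATS kinases restrain, had normalized counts of 4692, 4744 and 4663 in the shControl libraries and 3488, 3329 and 3487 in the shZDHHC20 libraries. Its groups were separated by a wide gap, at 73.1% of the control mean (log2 fold change -0.45 ± 0.05, adjusted p = 3.79e-05, and -0.43 without replicate 2). It was called in each of the 18 alternative analyses, with a highest adjusted p of 0.0443. WWTR1, which encodes the related coactivator TAZ, had 4602, 4651 and 4711 in the shControl libraries and 4112, 3762 and 4218 in the shZDHHC20 libraries. All shZDHHC20 values of WWTR1 lay below all shControl values, with replicate 2 the lowest (log2 fold change -0.21 ± 0.05, adjusted p = 0.0189; without replicate 2, -0.16 with an adjusted p of 0.00157). Within each library the ratio of YAP1 to WWTR1 was 1.02, 1.02 and 0.990 in shControl and 0.848, 0.885 and 0.827 in shZDHHC20. The ratio did not overlap between groups (log2 difference -0.24, exact permutation p = 0.1, the smallest that 3 against 3 libraries allow).

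The TEAD genes encode the factors through which YAP and TAZ reach DNA. TEAD1 had normalized counts of 4305, 4352 and 4155 in the shControl libraries and 3773, 3764 and 3822 in the shZDHHC20 libraries. TEAD2 had 622, 607 and 639.8 in the shControl libraries and 529, 526 and 459 in the shZDHHC20 libraries. Neither gene's groups overlapped, at 88.7% of control for TEAD1 (log2 fold change -0.17 ± 0.05, adjusted p = 0.0256) and 81.0% for TEAD2 (log2 fold change -0.31 ± 0.08, adjusted p = 0.0230). Without replicate 2 the log2 fold changes were -0.17 and -0.34. TEAD3 had 229, 267 and 251 in the shControl libraries and 261, 249 and 185 in the shZDHHC20 libraries. For TEAD3 the groups overlapped and its 95% interval of the log2 fold change was -0.40 to 0.16. TEAD4 had 455, 509 and 444 in the shControl libraries and 414, 428 and 445 in the shZDHHC20 libraries. Its highest shZDHHC20 value only just exceeded the lowest shControl value, and the interval was -0.31 to 0.05, so that for both genes neither a fall like that of TEAD2 nor no change can be told from these libraries. TEAD1 and TEAD4 had a ratio of 9.13 ± 0.505 in shControl and 8.83 ± 0.256 in shZDHHC20 (SD, n = 3; exact permutation p = 0.4). VGLL4, which competes with YAP for TEAD, had 1003, 966 and 927 in the shControl libraries and 929, 1081 and 885 in the shZDHHC20 libraries, with overlapping groups and an interval of -0.17 to 0.16.

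**Figure D2:**
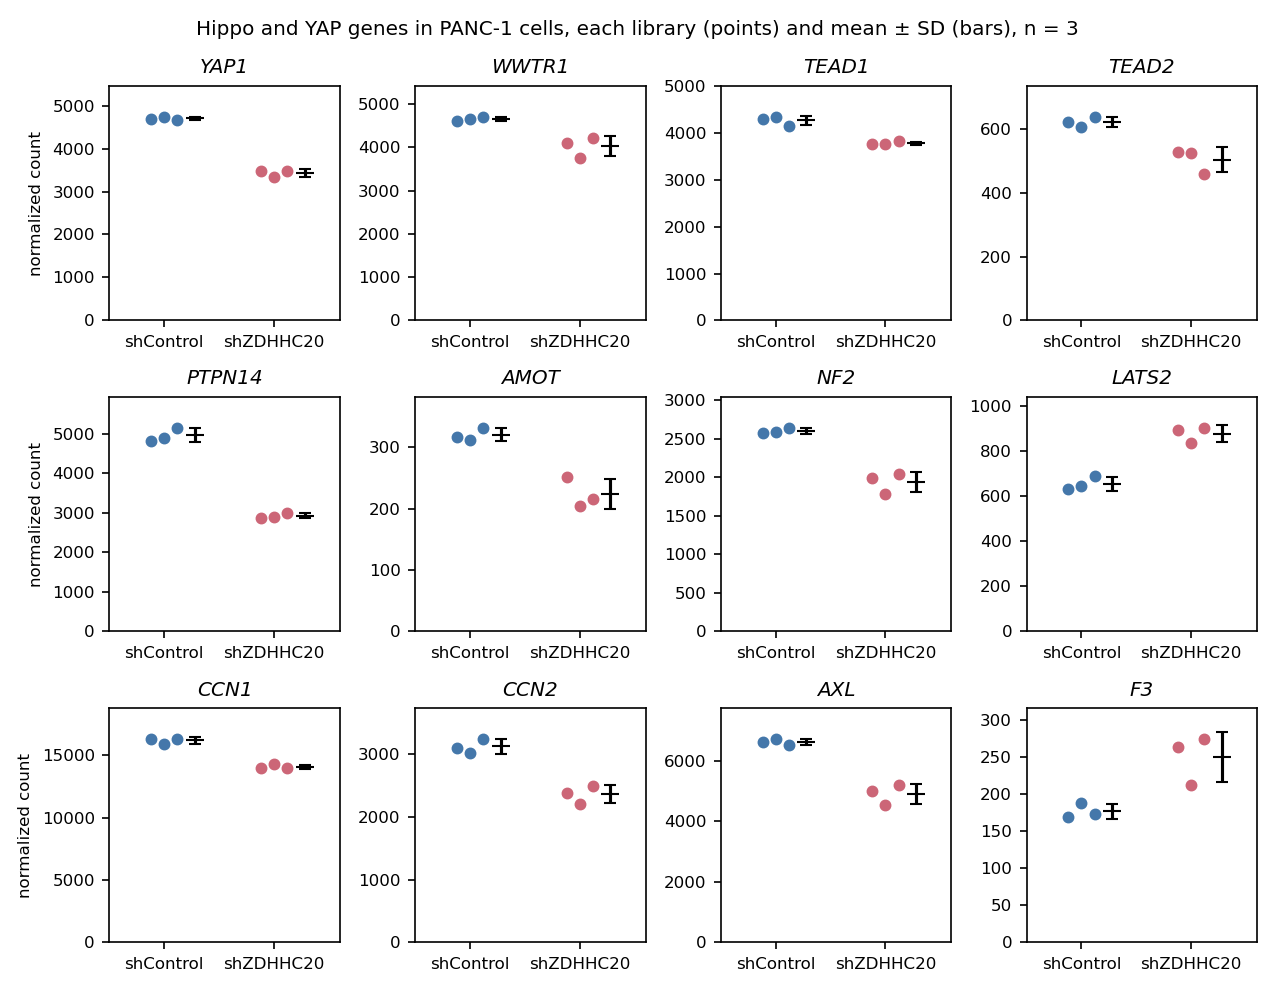
Normalized counts (y axis, from 0) of 12 members in each library (points) with the mean and SD of 3 libraries (black), shControl in blue and shZDHHC20 in red. No shZDHHC20 point of YAP1, WWTR1, TEAD1, TEAD2, PTPN14, AMOT, NF2, CCN1, CCN2 or AXL reaches a shControl point, and every shZDHHC20 point of LATS2 and F3 lies above the shControl points.

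Of the 7 YAP target genes, 5 were called lower and 1 higher (71.4% and 14.3%), with a median log2 fold change of -0.25. The shares among genes at or above the lowest member's mean were 12.9% and 8.27%. CCN2 (chr6:131948176-131951373, minus strand), whose matricellular protein CTGF is a standard readout of YAP activity and whose start is preceded by the 3 copies of GGAATG shown above, had normalized counts of 3103, 3029 and 3254 in the shControl libraries and 2383, 2209.8 and 2498 in the shZDHHC20 libraries. Every shZDHHC20 value was below every shControl value (75.5% of control; log2 fold change -0.41 ± 0.06, adjusted p = 5.01e-04, and -0.36 without replicate 2). CCN1, which encodes the related matricellular protein CYR61, had 16318, 15865 and 16319.9 in the shControl libraries and 13937, 14247 and 13980.0 in the shZDHHC20 libraries. This fall to 86.9% was smaller but tight (log2 fold change -0.20 ± 0.04, adjusted p = 0.00473; without replicate 2, -0.21), and the gene did not pass under quantile normalization (log2 fold change -0.09, adjusted p = 0.124), one of 4 alternatives among 18 under which it was not called, with adjusted p from 7.64e-06 to 0.148 over all of them. The ratio of CCN1 to CCN2 was 5.26, 5.24 and 5.02 in shControl and 5.85, 6.45 and 5.60 in shZDHHC20, higher in each shZDHHC20 library than in any shControl library (log2 difference 0.20, exact permutation p = 0.1).

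AXL (chr19:41219203-41261766, plus strand), a receptor tyrosine kinase for GAS6, had normalized counts of 6616, 6733 and 6536 in the shControl libraries and 4991, 4534 and 5195 in the shZDHHC20 libraries. Its groups were far apart, at 74.0% of control (log2 fold change -0.44 ± 0.05, adjusted p = 1.63e-04, and -0.38 without replicate 2). CRIM1, a transmembrane protein that binds bone morphogenetic proteins, had 15155, 15021 and 15224 in the shControl libraries and 12817, 12241 and 13231 in the shZDHHC20 libraries. NUAK2, a kinase of the AMPK family, had 445, 452 and 434 in the shControl libraries and 335, 331 and 367 in the shZDHHC20 libraries. Both were separated between groups, CRIM1 at 84.3% (log2 fold change -0.25 ± 0.04, adjusted p = 0.00215) and NUAK2 at 77.6% of control (log2 fold change -0.37 ± 0.08, adjusted p = 0.0109). Without replicate 2 the log2 fold changes were -0.22 for CRIM1 and -0.34 for NUAK2. The other two targets were not called lower. ANKRD1, an ankyrin repeat protein and a strongly YAP-responsive gene with 2 copies of GGAATG before its RefSeq start, had 671, 783 and 609 in the shControl libraries and 749, 672 and 729 in the shZDHHC20 libraries. Its groups overlapped and the shControl values were the more spread, with an interval of -0.13 to 0.26 for the log2 fold change. F3 (chr1:94529225-94541800, minus strand), which encodes tissue factor, the initiator of blood clotting, had 169, 189 and 173 in the shControl libraries and 264, 212 and 275 in the shZDHHC20 libraries. F3 rose to 142% of control (log2 fold change 0.49 ± 0.12, adjusted p = 0.0176). Its replicate 2 lay closest to the controls, and without that library the log2 fold change was 0.61 (adjusted p = 8.51e-04).

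PTPN14 (chr1:214348696-214552449, minus strand), a phosphatase that binds YAP and holds it back from the nucleus, had the log2 fold change farthest from 0 of the 38 members. Its normalized counts were 4819.9, 4895 and 5156 in the shControl libraries and 2879, 2905 and 2997 in the shZDHHC20 libraries. The shZDHHC20 libraries lay within a narrow range at 59.0% of the control mean (log2 fold change -0.76 ± 0.05, adjusted p = 1.19e-06, and -0.75 without replicate 2). The gene was called in each of the 18 alternatives, with a highest adjusted p of 0.0266. It belongs to the 6 junction and cytoskeleton regulators of YAP, of which 3 were called lower and none higher (median log2 fold change -0.20). For comparison, 12.9% of genes at or above the lowest member's mean were called lower and 8.27% higher. AMOT, the angiomotin that ties YAP to tight junctions and actin, had 317, 312 and 332 in the shControl libraries and 251, 204 and 217 in the shZDHHC20 libraries. AJUBA, a LIM protein that inhibits LATS kinases at junctions, had 2288, 2485 and 2319 in the shControl libraries and 2000.1, 2114 and 1951 in the shZDHHC20 libraries. Neither gene's groups overlapped (AMOT log2 fold change -0.52 ± 0.10, adjusted p = 0.00510; AJUBA log2 fold change -0.23 ± 0.06, adjusted p = 0.0194). Leaving out replicate 2 gave -0.46 for AMOT and -0.26 for AJUBA.

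The other angiomotins did not pass the test and lay on opposite sides of 0. AMOTL1 had normalized counts of 955, 991 and 1007 in the shControl libraries and 1028, 1055 and 1078 in the shZDHHC20 libraries. AMOTL2, itself a known YAP target, had 3567, 3367 and 3464 in the shControl libraries and 2848, 3387 and 3027 in the shZDHHC20 libraries. The groups of AMOTL1 did not overlap (interval -0.03 to 0.23), whereas AMOTL2 of shZDHHC20 replicate 2 reached into the control range (interval -0.30 to -0.04). Without that library the log2 fold change of AMOTL2 was -0.24 (adjusted p = 4.64e-04). The ratio of AMOTL1 to AMOTL2 was 0.268, 0.294 and 0.291 in shControl and 0.361, 0.311 and 0.356 in shZDHHC20, with no overlap (log2 difference 0.27, exact permutation p = 0.1). LIMD1, a LIM protein of the AJUBA family, averaged 1619.5 ± 18.3 against 1547 ± 73.4 (SD, n = 3), with an interval of -0.19 to 0.05.

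In the core cassette, LATS2 and STK3 moved in opposite directions and the other 5 genes did not pass. Each direction thus held 14.3% of these genes. Genes at or above the lowest member's mean gave 12.9% lower and 8.27% higher. LATS2 (chr13:20973032-21061547, minus strand), a kinase that phosphorylates YAP and a known YAP target, had normalized counts of 631, 647 and 689.8 in the shControl libraries and 894, 834 and 905 in the shZDHHC20 libraries. Each shZDHHC20 value exceeded each control value, at 134% of control (log2 fold change 0.42 ± 0.07, adjusted p = 0.00154; without replicate 2, 0.46 with an adjusted p of 1.01e-04). Its RefSeq window held GGAATG at base 10 after the start. LATS1 had 1446, 1451 and 1482 in the shControl libraries and 1402, 1158 and 1347 in the shZDHHC20 libraries. All 3 shZDHHC20 values of LATS1 were below the controls, but replicate 2 lay well below the other two and the gene did not pass (log2 fold change -0.17 ± 0.07, adjusted p = 0.164; without replicate 2, -0.09, adjusted p = 0.225). The ratio of LATS1 to LATS2 was 2.29, 2.24 and 2.15 in shControl and 1.57, 1.39 and 1.49 in shZDHHC20, with no overlap (log2 difference -0.59, exact permutation p = 0.1).

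STK3 had normalized counts of 361, 415 and 375 in the shControl libraries and 320.1, 278 and 276 in the shZDHHC20 libraries. The gene was lower in each shZDHHC20 library than in any control (log2 fold change -0.40 ± 0.10, adjusted p = 0.0170, and -0.37 without replicate 2). STK4, its close relative, had 2249, 2309 and 2309 in the shControl libraries and 2078, 2073 and 2159.5 in the shZDHHC20 libraries, also without overlap but with a smaller difference that did not pass (log2 fold change -0.12 ± 0.05, adjusted p = 0.152, and -0.11 without replicate 2). The ratio of STK3 to STK4 was 0.160, 0.180 and 0.163 in shControl and 0.154, 0.134 and 0.128 in shZDHHC20, which did not overlap (log2 difference -0.28, exact permutation p = 0.1). SAV1, the scaffold that joins these kinases to LATS, had 432, 409.8 and 448 in the shControl libraries and 476, 522 and 486 in the shZDHHC20 libraries, separated upward but not called (log2 fold change 0.20 ± 0.08, adjusted p = 0.131, and 0.16 without replicate 2). MOB1A averaged 6919.7 ± 132 against 6627 ± 538 and MOB1B 998 ± 38.3 against 955 ± 98.2 (SD, n = 3), with intervals of -0.19 to 0.06 and -0.24 to 0.10. Their ratio was 6.94 ± 0.154 in shControl and 6.95 ± 0.199 in shZDHHC20 (exact permutation p = 0.9). Over the 8 pairs of related genes compared in this way, the 5 whose ratios were separated had a Benjamini-Hochberg adjusted p of 0.16. Tests of 3 against 3 libraries cannot go below 0.1 before adjustment. Without shZDHHC20 replicate 2 the log2 differences of those 5 ratios were -0.27 for YAP1 to WWTR1, 0.15 for CCN1 to CCN2, 0.34 for AMOTL1 to AMOTL2, -0.54 for LATS1 to LATS2 and -0.25 for STK3 to STK4.

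**Figure D3:**
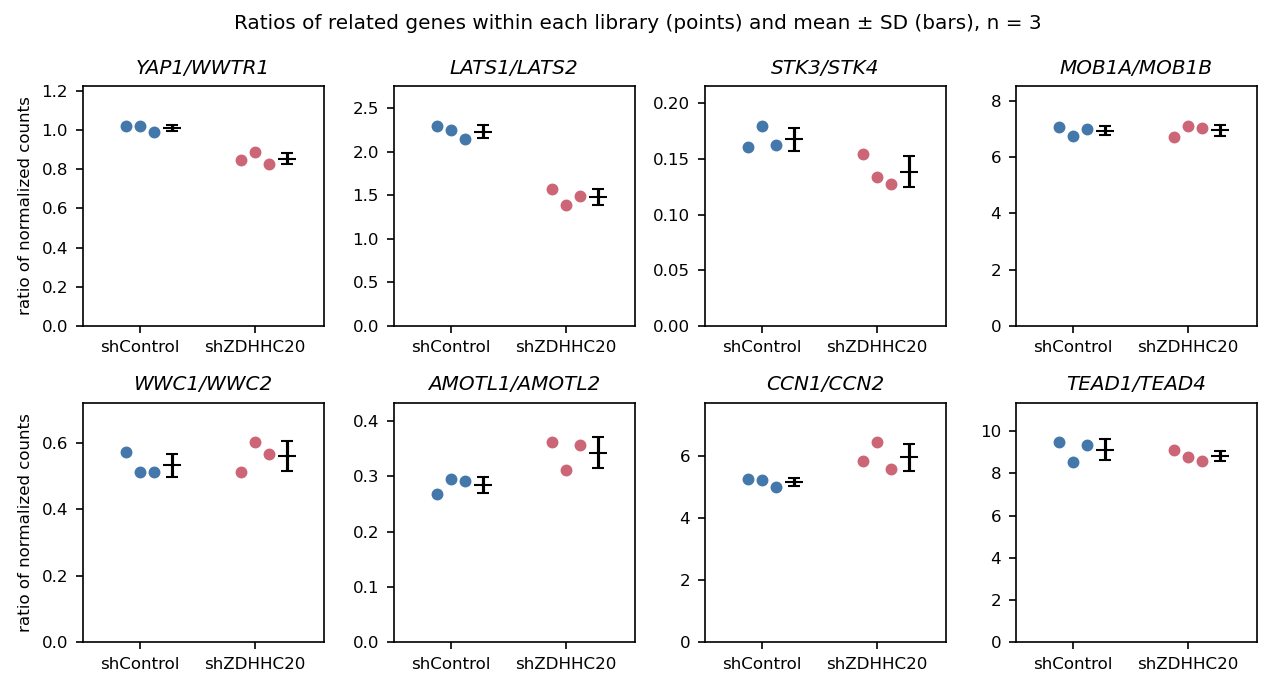
Ratios of the normalized counts of 2 related members within each library (y axis, from 0), with points for libraries and black bars for the mean and SD of 3. The ratios of YAP1 to WWTR1, LATS1 to LATS2 and STK3 to STK4 are lower in every shZDHHC20 library, those of AMOTL1 to AMOTL2 and CCN1 to CCN2 are higher, and the other 3 overlap.

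Of the 4 upstream kinases 2 were called higher, and all had positive log2 fold changes (median 0.13), except that TAOK2 was at -0.03 without shZDHHC20 replicate 2. This count from 4 genes stands beside 8.27% called higher among genes at or above the lowest member's mean. TAOK1, a kinase that activates STK3 and STK4, had normalized counts of 4657, 4745 and 4846 in the shControl libraries and 5680.3, 4999 and 5690.4 in the shZDHHC20 libraries. MAP4K4, which phosphorylates LATS kinases in parallel to them, had 1858, 1975 and 1967 in the shControl libraries and 2336, 2143 and 2247 in the shZDHHC20 libraries. Neither gene's groups overlapped, with replicate 2 the lowest of the shZDHHC20 values in both (TAOK1 log2 fold change 0.20 ± 0.06, adjusted p = 0.0345; MAP4K4 log2 fold change 0.21 ± 0.06, adjusted p = 0.0240). Leaving out replicate 2 gave 0.26 for TAOK1 and 0.25 for MAP4K4. TAOK2 averaged 2604 ± 113 against 2727 ± 316 and TAOK3 594 ± 9.65 against 614 ± 55.8 (SD, n = 3), with intervals of -0.10 to 0.22 and -0.13 to 0.22.

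Of the 7 upstream scaffolds and cadherins, NF2 alone was called. This is 14.3% lower, close to the 12.9% among genes at or above the lowest member's mean. NF2 (chr22:29603556-29698598, plus strand) encodes Merlin, the membrane scaffold that brings LATS kinases to the plasma membrane, and had normalized counts of 2572, 2584 and 2645 in the shControl libraries and 1991, 1786 and 2042 in the shZDHHC20 libraries. It stood at 74.6% of control with a clear gap between groups (log2 fold change -0.43 ± 0.06, adjusted p = 4.33e-04; without replicate 2, -0.37, adjusted p = 8.40e-06). FRMD6, a FERM protein thought to act beside Merlin, had 1647, 1748 and 1781 in the shControl libraries and 1535, 1353 and 1575 in the shZDHHC20 libraries. Its groups did not overlap, but its adjusted p of 0.0538 missed the threshold (interval -0.36 to -0.07). WWC1 (KIBRA) averaged 583 ± 59.7 against 557 ± 16.5 and its relative WWC2 1094 ± 62.8 against 999 ± 66.1 (SD, n = 3), and neither these nor their ratio, with an exact permutation p of 0.6, passed.

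The atypical cadherins, counterparts of the fly Fat and Dachsous receptors, had positive log2 fold changes that did not pass. FAT1 had normalized counts of 5722, 5961 and 5880.2 in the shControl libraries and 6330.1, 5995 and 6778 in the shZDHHC20 libraries. FAT4 averaged 759 ± 16.9 against 822 ± 69.4 and DCHS1 averaged 71.4 ± 10.5 against 76.4 ± 14.0 (SD, n = 3). Their intervals were 0.01 to 0.23, -0.05 to 0.27 and -0.32 to 0.51, the last the widest of all members, and DCHS1 was also the least abundant. The lowest shZDHHC20 values of FAT1 and FAT4 were those of replicate 2, and without it both were called, at 0.16 (adjusted p = 0.00271) and 0.18 (adjusted p = 0.0353). FRMD6 (-0.15, adjusted p = 0.0353) and AMOTL2 were the other members that passed only then.

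**Figure D4:**
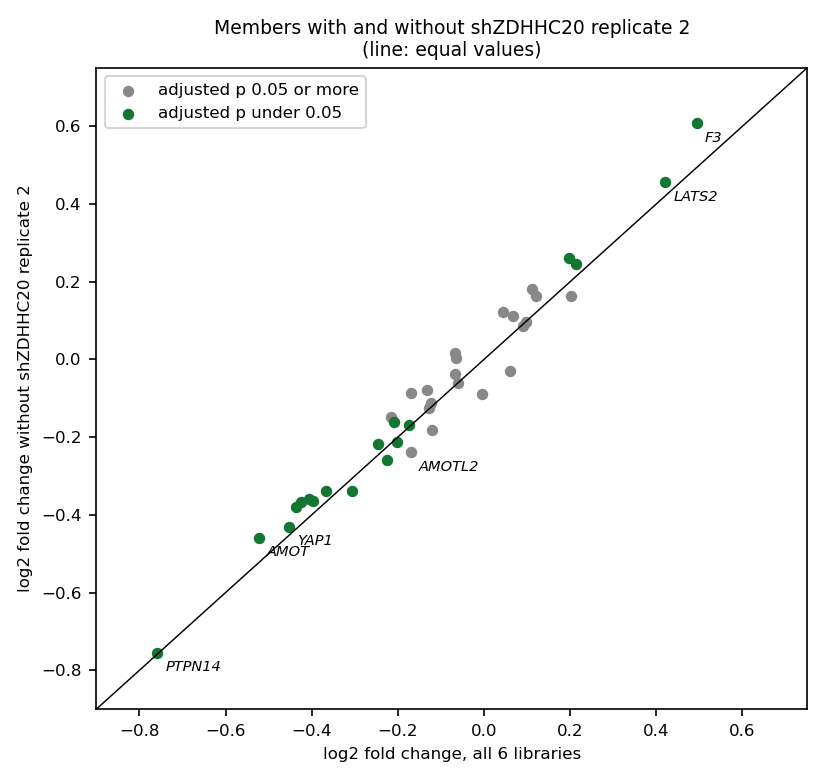
Log2 fold changes of the 38 members with all 6 libraries (x axis) and without shZDHHC20 replicate 2 (y axis), green where the adjusted p with all libraries was under 0.05; the line marks equal values. The points follow the line, the 18 green points keep their sign, and 3 grey points close to 0 change sign.

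Levels were compared between members per kilobase of exon, using the merged GENCODE 29 exons of each gene. In shControl the 4 most abundant members were YAP targets. CCN1 led with 6586 ± 107 normalized counts per kb (SD, n = 3), followed by CRIM1 with 2125 ± 14.5, CCN2 with 1338 ± 49.0 and AXL with 1286 ± 19.3, and the last pair overlapped. Of the coactivators, YAP1 had 746 ± 6.51 per kb and WWTR1 553 ± 6.49. Of the TEAD genes, TEAD1 had 415 ± 9.99, TEAD2 209 ± 5.56, TEAD4 206 ± 15.5 and TEAD3 81.8 ± 6.23. In this order of coactivators and factors, TEAD2 and TEAD4 were the only neighbours that overlapped. MOB1A (1074 ± 20.5 per kb) was the most abundant core gene and STK3 (30.5 ± 2.22) the least, and DCHS1 (6.63 ± 0.977) was the lowest member. After silencing, YAP1 stood at 546 ± 14.5 per kb and kept the sixth place. PTPN14 dropped from place 16 of 38 (264 ± 9.41 per kb) to place 22 (156 ± 3.30), and LATS2 rose from place 26 (118 ± 5.49) to place 21 (157 ± 6.81). Per-kb levels divide by all annotated exon bases and understate genes whose long exons are little used.

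**Figure D5:**
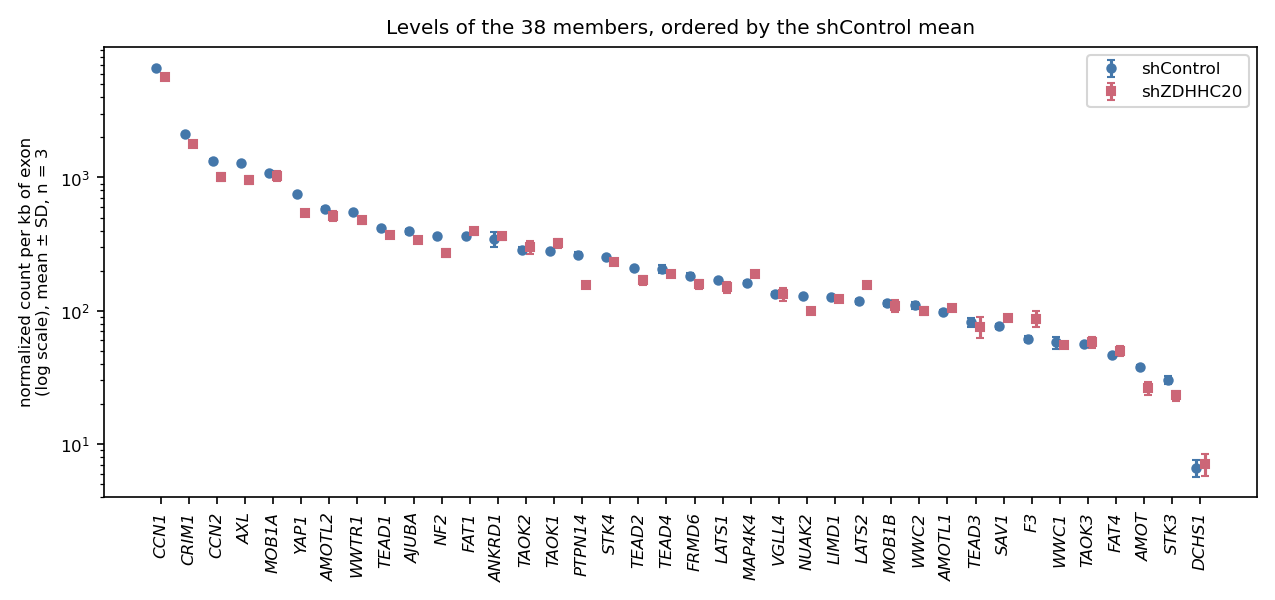
Normalized counts per kb of exon (y axis, log scale) of the 38 members in the order of their shControl mean, with mean and SD of 3 libraries for shControl (blue circles) and shZDHHC20 (red squares). Levels run from 6586 ± 107 for CCN1 to 6.63 ± 0.977 for DCHS1 in shControl, and the largest gap between groups is at PTPN14.

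Members with and without GGAATG were found among the genes called in both directions. Of the 11 members with GGAATG in a window, 6 were called lower (AJUBA, AXL, CCN2, NUAK2, PTPN14 and YAP1), 1 higher (LATS2) and 4 were not called (AMOTL2, ANKRD1, TAOK3 and WWC2). The copies of AJUBA, AXL, AMOTL2 and TAOK3 lay in the window of a downstream start, and their windows farther upstream held none. The only window of PTPN14 was also at an internal start. Of the 19 members with a window and no copy, 4 were lower, 3 higher and 12 not called. The median log2 fold change was -0.23 in the first set and -0.07 in the second, given as a description without a test. STK3, FAT4, DCHS1, LIMD1, TEAD1, TEAD4, CCN1 and CRIM1 had no window in the table.

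Exons of 16 members, 9 of them called, share bases with a gene on the opposite strand, among them YAP1 (628 bases with AP000942.2), PTPN14 (1213 with KRT18P12), WWTR1 (795 with WWTR1-AS1) and CCN2 (195 with AL133346.1). The kit keeps strand, but whether the counting used it is not given in the sources used here, so their values could include reads of those partners. On the same strand, exons of PTPN14 (151 bases with AL929236.1), AMOTL2 (187 with RPL39P5) and MOB1B (199 with DCK) share bases with another gene. So do those of AMOT (71 with MIR4329), TAOK1 (69 with MIR4523) and AJUBA (50 with AL132780.3). Strand cannot separate such reads. YAP1, MOB1A and FAT1 also have processed pseudogenes (YAP1P1 and YAP1P2, MOB1AP1 and MOB1AP2, and FAT1P1), with which reads may be shared.

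Genes of the pathway outside the members were counted in the same fit. Of 61 other Hippo regulators tested, 12 were called lower and 6 higher, or 19.7% and 9.84%, with a median log2 fold change of -0.03. All genes tested gave 6.84% and 4.61%, and those at or above the lowest member's mean 12.9% and 8.27%, so the share called higher was close to the latter. Some genes of this list lie below that mean, among them CRB3, 1 of the 6 called higher, so the background is not fully alike. KIRREL1, a cell adhesion protein that recruits SAV1, had normalized counts of 3912, 4078 and 4132 in the shControl libraries and 2935, 3083 and 2928 in the shZDHHC20 libraries (log2 fold change -0.44 ± 0.05, adjusted p = 7.72e-05, and -0.46 without replicate 2). SIKE1, a subunit of the STRIPAK phosphatase complexes that oppose STK3 and STK4, had 833, 905 and 834 in the shControl libraries and 561, 575 and 573 in the shZDHHC20 libraries (log2 fold change -0.59 ± 0.07, adjusted p = 1.05e-04, and -0.60 without replicate 2). YWHAH, a 14-3-3 protein of the family that binds phosphorylated YAP, had 1695, 1862 and 1672 in the shControl libraries and 1205, 1246 and 1316 in the shZDHHC20 libraries (log2 fold change -0.47 ± 0.06, adjusted p = 3.14e-04, and -0.47 without replicate 2). These 3 were lower with no overlap. PATJ, a scaffold of the Crumbs polarity complex, was higher in each shZDHHC20 library, with 810.4, 759 and 861 in the shControl libraries and 1173, 1058 and 1284 in the shZDHHC20 libraries (log2 fold change 0.53 ± 0.08, adjusted p = 7.53e-04, and 0.60 without replicate 2). CRB3, the Crumbs protein itself, was picked out after its values were seen. It rose from a very low level, with normalized counts between 2.02 and 4.02 in shControl and between 21.2 and 27.6 in shZDHHC20 (log2 fold change 2.88 ± 0.50, adjusted p = 0.00209, and 2.88 without replicate 2). The number of genes called in this list, 18, changed to 9 without shControl replicate 3, 11 without shControl replicate 1 and 28 without shZDHHC20 replicate 2. The shares of all genes called moved in the same directions in these fits, as given above for the members.

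Of 32 further YAP and TAZ target genes tested, 9 were lower and 4 higher, or 28.1% and 12.5%, with a median of -0.08, beside the same background shares of 12.9% and 8.27%. Some of these genes, among them CAVIN2, RBMS3, DAB2 and CCDC80, lie below the mean that bounds this background. FJX1, called lower, is counted both here and among the other Hippo regulators. GADD45A, a stress-response protein, had normalized counts of 1814, 1833 and 1822 in the shControl libraries and 983, 1088 and 959 in the shZDHHC20 libraries (log2 fold change -0.85 ± 0.06, adjusted p = 4.17e-06, and -0.91 without replicate 2). CCND1, which encodes cyclin D1, had 9259.9, 9233 and 9380.5 in the shControl libraries and 6824, 6457 and 6855 in the shZDHHC20 libraries (log2 fold change -0.47 ± 0.04, adjusted p = 2.06e-05, and -0.44 without replicate 2). GLI2, a transcription factor of Hedgehog signalling, had 581, 542 and 529.6 in the shControl libraries and 363, 359 and 371 in the shZDHHC20 libraries (log2 fold change -0.60 ± 0.08, adjusted p = 2.70e-04, and -0.59 without replicate 2). All 3 fell with no overlap, while AREG, an EGFR ligand, rose, with means of 112 ± 23.9 against 223 ± 16.7 (SD, n = 3; log2 fold change 1.01 ± 0.15, adjusted p = 7.22e-04, and 1.06 without replicate 2), also with no overlap. These targets are shared with other pathways, and the list therefore does not measure YAP alone. The number called, 13, was 6 without shControl replicate 1 or 2 and 7 without shControl replicate 3 or shZDHHC20 replicate 1. Of the 7 AP-1 subunits, partners of TEAD at many enhancers, FOSL1 and FOSL2 were lower (28.6%) and none was higher. The background shares are the same 12.9% and 8.27%, although FOS and FOSB lie below the mean that bounds this background. FOSL1 had 3169.8, 3094 and 3174 in the shControl libraries and 2539, 2298 and 2500.2 in the shZDHHC20 libraries (log2 fold change -0.36 ± 0.05, adjusted p = 6.39e-04, and -0.32 without replicate 2). FOSL2 had 1243, 1229 and 1318 in the shControl libraries and 1032, 1129 and 1033 in the shZDHHC20 libraries (log2 fold change -0.25 ± 0.06, adjusted p = 0.0220, and -0.29 without replicate 2). The groups overlapped for neither. The number of subunits called was 4 without shZDHHC20 replicate 2 and 1 without any other single library. The shares of all genes called in the fits without 1 library were given above for the members.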

How the data were processed

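Libraries were prepared with the NEBNext Ultra Directional RNA kit from total RNA of PANC-1 cells. The authors deposited 1 normalized signal per gene and library, in a table named as FPKM whose values are whole-number multiples of 1 unit per library (100% within 0.05), that is, gene counts divided by a scaling factor. The labels name hg19; aligner, counter and annotation are not given in the sources used here. Columns named NC and siZDHHC20 were matched to the shControl and shZDHHC20 titles by group and number. Gene names matched for 27175 of 27394 identifiers, and positions and exon lengths came from GENCODE 29 (GRCh38), not from the table.

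A pseudocount of 0.1 was added, genes with a mean of at least 1 were kept, and log2 values were fitted with limma 3.58.1 (lmFit, and eBayes with a trend) in R 4.3.3, with group as the term. Two-sided p-values were corrected for 22189 genes as Benjamini and Hochberg describe. Fold changes are on the log2(value + 0.1) scale, with SE. The design had been written for FPKM and was kept. edgeR 4.0.16 and DESeq2 1.42.0 on the recovered whole reads, other pseudocounts, filters, scalings and moderation, a block by replicate number and leave-one-out fits were alternatives. Ratios were tested with two-sided exact permutation tests. Genes given library by library were members with an adjusted p under 0.05 and the central YAP, TEAD, LATS and target genes. VGLL4, AMOTL1, AMOTL2, STK4, SAV1, FRMD6 and FAT1, which did not pass, were given so as well. From each other list, up to 4 called genes with the smallest adjusted p were named, AREG by its means. On simulated counts for this comparison (27394 genes), 188 of 200 genes changed 1.5-fold were recovered and 2 of 21987 unchanged genes called. For 0.5-fold the numbers were 199 of 200 and 2 of 22044. The simulation gave every gene and library the same dispersion, drew the changed genes from well expressed ones and held no outlying library. Changes smaller than 1.5-fold, as in most members called, were not simulated. The members and lists were chosen with earlier results of these data known. Figures were drawn with matplotlib 3.10.9.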

Additional observations from a re-analysis of the deposited data

How the results depend on the processing

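The number of members called depended on how variances were estimated and on the number of libraries. Without the mean-variance trend 2 members were lower (PTPN14 and YAP1) and 0 higher, and without moderation 7 were lower and 1 higher, while 13 to 15 were lower and 4 higher under both other pseudocounts, both other filters, both scalings, robust moderation, edgeR and DESeq2. The shares of all genes called fell as well, from 6.84% lower and 4.61% higher in the main fit. They were 0.978% and 0.604% without the trend, and 2.56% and 1.55% without moderation. With a replicate block 13 were lower and 2 higher, against 5.31% and 3.44% of all genes. The same replicate numbers did not deviate together (r = -0.052, -0.056 and -0.021 over 15101 genes), so no pairing by number was seen. Deviations from means of 3 libraries, with 1 outlying library, cannot exclude a pairing. Leaving out 1 library gave 8 to 16 lower and 1 to 6 higher, while 3.34% to 11.1% of all genes were lower and 2.10% to 8.93% higher. Without shControl replicate 1, 2 or 3 the counts were 8 lower in each case and 1, 2 and 1 higher, without shZDHHC20 replicate 1 they were 9 and 1, without replicate 3 they were 11 and 1, and the highest counts came without replicate 2. The 18 members called kept their sign in all 18 alternatives, and 8 were called in each leave-one-out fit. Other Hippo regulators called, 18, were 2 without the trend, 4 without moderation and 9 to 28 without 1 library. Other YAP and TAZ targets called, 13, were 3, 5 and 6 to 16 in those settings. AP-1 subunits called, 2, were 0 without the trend, 1 without moderation, 1 with the replicate block and 1 to 4 without 1 library. The causes were not tested. Quantile normalization and edgeR turned VGLL4 to 0.0115 and 0.0050 (log2). Signs also turned when 1 library was left out for MOB1A (-0.103 to 0.00379), MOB1B (-0.130 to 0.0165), TAOK2 (-0.0302 to 0.128), WWC1 (-0.134 to 0.0145), DCHS1 (-0.0392 to 0.227), TEAD3 (-0.214 to 0.0341), VGLL4 (-0.0900 to 0.0539) and ANKRD1 (-0.0173 to 0.165), none of them called. Of 684 member results over the alternatives, 590 kept direction and side of the threshold, 71 lost the call, 10 gained it and 13 turned. With 3 libraries per group, the exact tests cannot go below 0.1. The effect of depth was not tested.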
